A study of Mus musculus with 12 samples.

Results

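Accessible chromatin at the genes of the cytosolic ribosomal proteins was followed in mouse CD4+ T cells grown with or without DFMO. A peak was taken when it overlapped, or lay within 200 bp of, a protein-coding gene model whose symbol is Rpl or Rps with a number (a, x, l or y may follow), Rplp0 to Rplp2, or Rpsa. Mitochondrial ribosomal proteins and the Rps6k kinases were left out. This gave 78 of 48443 peaks, at 73 of the 81 genes that the annotation lists under such symbols. Of the 78 peaks, 45 lay at large subunit genes, 28 at small subunit genes, 3 at the stalk genes Rplp0, Rplp1 and Rplp2, and 2 at the paralogs Rpl3l and Rps27l. Rpl10l, Rpl13a, Rpl15, Rpl32l, Rpl39l, Rps21 and Rps29 were among the 8 genes with no peak, and 10 similar symbols, among them Rps3a1 and Rpl36al, do not follow the naming rule and were not included.

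The libraries are ATAC-seq libraries, in which the Tn5 transposase cuts and tags open DNA, from spleen T cells of wild-type (WT) C57BL/6 mice. All 4 groups began as sorted naive CD4+CD44-CD62L+CD25- cells, activated by plate-bound anti-CD3 and anti-CD28 (1 µg/ml of each), received 2 ng/ml TGF-beta1 and were collected at 68 h. They were non-pathogenic Th17 cells (Th17n, with 25 ng/ml IL-6 added) with 100 µM DFMO, Th17n with vehicle, induced regulatory T cells (iTreg, no IL-6) with 100 µM DFMO, and iTreg with vehicle. DFMO (difluoromethylornithine) blocks ornithine decarboxylase, the enzyme that opens polyamine synthesis. Animals 1 to 3 each gave 1 library to every group, so n = 3 per group and 12 libraries in all.

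A ribosome has a small subunit, which reads the mRNA, and a large subunit, which joins the amino acids, and each subunit needs nearly every one of its proteins in equal number. The genes are transcribed strongly in growing cells, mostly from short promoters without a classical TATA box, and many of their transcripts begin with a run of pyrimidines that lets mTOR signalling set how much of them is translated. An activated T cell builds ribosomes quickly before it divides. Many ribosomal protein genes carry small nucleolar RNA genes in their introns, and most have intronless pseudogene copies elsewhere in the genome. The treatment of reads that fit several copies is not recorded in the labels.

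The start regions of Rps19 and Rpl10 are printed because these 2 genes were called more accessible with DFMO in both lineages. Each window runs from 250 bases before to 50 bases after the RefSeq start in build GRCm38.p6 (the mm10 assembly), 5′ to 3′ on the gene's strand. Capitals mark the GC box GGGCGG, read on either strand.
Rps19, chr7:24884342-24884641, plus strand: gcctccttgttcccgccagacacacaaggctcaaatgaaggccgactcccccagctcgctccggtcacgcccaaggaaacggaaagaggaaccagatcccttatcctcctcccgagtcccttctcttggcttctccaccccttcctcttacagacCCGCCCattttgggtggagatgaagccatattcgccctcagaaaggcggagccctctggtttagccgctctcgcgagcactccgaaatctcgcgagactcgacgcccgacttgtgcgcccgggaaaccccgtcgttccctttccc
Rpl10, chrX:74270566-74270865, plus strand: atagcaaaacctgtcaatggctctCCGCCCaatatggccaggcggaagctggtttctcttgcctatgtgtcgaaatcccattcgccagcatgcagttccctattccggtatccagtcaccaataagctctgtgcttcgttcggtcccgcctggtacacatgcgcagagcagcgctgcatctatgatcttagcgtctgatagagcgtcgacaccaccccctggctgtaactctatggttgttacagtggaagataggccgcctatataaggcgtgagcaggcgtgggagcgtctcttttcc

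Pyrimidine runs at the start are shown here in capitals for genes called higher with DFMO on average (Rpl28, Rplp2, Rps10, Rps27). They are also shown for genes whose start peak was not called on average (Rpl38, Rps18, Rps6, the last called in iTreg alone). A window can hold both a run and a GC box, as that of Rpl14 does. A run was counted where at least 6 C or T in a row began within 5 bases of the RefSeq start. One that began further upstream, as in Rpl14, was also counted, by its part from 5 bases before the start on. These shorter stretches hold 20 bases before the start and 30 from it on.
Rpl28, chr7:4792945-4792994, plus strand: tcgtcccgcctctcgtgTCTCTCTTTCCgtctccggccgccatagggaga
Rplp2, chr7:141447631-141447680, plus strand: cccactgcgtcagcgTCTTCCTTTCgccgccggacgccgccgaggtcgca
Rps10, chr17:27635215-27635264, minus strand: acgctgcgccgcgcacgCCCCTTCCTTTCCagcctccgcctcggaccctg
Rps27, chr3:90213619-90213668, minus strand: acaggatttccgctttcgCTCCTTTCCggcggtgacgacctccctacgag
Rpl38, chr11:114668560-114668609, plus strand: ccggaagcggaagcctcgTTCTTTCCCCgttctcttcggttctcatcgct
Rps18, chr17:33955636-33955685, minus strand: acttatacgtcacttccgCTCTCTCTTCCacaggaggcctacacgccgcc
Rps6, chr4:86857338-86857387, minus strand: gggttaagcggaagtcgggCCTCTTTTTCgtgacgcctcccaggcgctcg

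A RefSeq window that meets one of the ribosomal protein peaks was at hand for 54 genes. A pyrimidine run was counted at the start in 38.9% of these 54 windows. It was counted in 12.9% of 21263 windows of all genes and in 12.5% of 10835 windows that meet a tested peak. Searched on the gene's strand only, around the start, CTTTCC stood in 25.9% of ribosomal protein windows, against 2.43% of all windows, and CTCTTTCC stood in 13.0%, against 0.216%. The ETS core CCGGAAG, searched on both strands of the whole window, stood in 38.9% of ribosomal protein windows, against 19.6% of windows that meet a tested peak. The YY1 core AAGATGGC was found in 5.56% of ribosomal protein windows and 4.70% of windows that meet a tested peak, the E-box CACGTG in 7.41% and 10.8%, TATAAA in 9.26% and 5.85%, GGGCGG in 57.4% and 69.6%, and TGACGTCA in 9.26% and 3.51%. CTTTCC is part of CTCTTTCC, and CCGCCC, the other strand of GGGCGG, can share its last letters with CCGGAAG. The median GC content was 57% in the ribosomal protein windows and 62.3% in windows that meet a tested peak.

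Library totals ran from 1020937 counts (Th17n with vehicle, animal 1) to 6496550 counts (Th17n with vehicle, animal 2). The filter on low counts kept 43726 peaks, all 78 ribosomal protein peaks among them. Accessibility is given in CPM, counts scaled to 1e6 per library with a TMM scaling factor for each library. At the 7 peaks of the Th17 markers Il17a, Il17f and Il23r, it summed to 78.5 to 121 CPM in the 6 Th17n libraries. In the 6 iTreg libraries the sum was 17.6 to 29.3 CPM. The Treg list, with Foxp3 among its 4 genes, had 452 to 551 CPM in Th17n and 415 to 533 CPM in iTreg, so its ranges overlapped. Cd79a and Ms4a1 of B cells, Cd8a and Ncr1 of CD8 and NK cells, Lyz2 of myeloid cells and Gata1 and Hba-a1 of erythroid cells had no peak. Summed over the peaks that these other lists did have, no library reached more than 80.6 CPM. With DFMO and with vehicle, the B cell list summed to 27.3 to 37.6 and 18.4 to 25.5 CPM in Th17n, and to 32.3 to 39.5 and 31.1 to 51.7 CPM in iTreg, from peaks of Pax5 alone, while the CD8 and NK cell list had 14.3 to 21.3 and 20.8 to 25.1 CPM in Th17n and 27.1 to 41.5 and 21.8 to 25.8 CPM in iTreg. In the same order, the T cell list had 251 to 279.6 and 317 to 337 CPM in Th17n and 288 to 345 and 293 to 304 CPM in iTreg, and the 3 Th17 markers had 78.5 to 119 and 108 to 121 CPM in Th17n and 17.6 to 18.8 and 21.2 to 29.3 CPM in iTreg. The erythroid list, from 1 peak, had 40.2 to 61.2 and 49.8 to 59.1 CPM in Th17n and 50.8 to 62.6 and 68.7 to 80.6 CPM in iTreg, and the myeloid list 28.6 to 43.5 and 31.1 to 40.1 CPM in Th17n and 23.5 to 37.6 and 22.4 to 29.5 CPM in iTreg. The part of these cells in the results was not tested.

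The ribosomal protein peaks were open in every group. Of the 78, 54 met a start window and their midpoints lay a median of 10 bp after the start (range -324.5 to 306 bp, negative before the start). Another 17 lay at an end of a gene for which no strand was at hand, and 7 lay elsewhere. They were a median of 881 bp wide (207 to 2154), close to the 938.5 bp of the 8976 peaks at start windows of protein-coding genes. Per kb of peak, the median level over 12 libraries was 48.0 CPM per kb at the 78 peaks and 43.0 CPM per kb at start peaks in general. Rplp0 (108 CPM per kb), Rpl37 (108 CPM per kb) and Rpl41 (99.6 CPM per kb) stood at the top. The Rpl19 peak that lies before the start window of the gene (19.3 CPM per kb) was near the bottom. The spread between animals was like that of other gene starts, with a median within-group SD of 0.212 (log2 CPM) at the 78 peaks and 0.220 at start peaks.

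The ribosomal protein peaks together took a larger share of the counts of a library with DFMO in both lineages. In Th17n cells they held 0.355%, 0.334% and 0.354% of all counts with DFMO (animals 1, 2 and 3), against 0.283%, 0.282% and 0.281% with vehicle. All 3 DFMO libraries lay above all 3 vehicle libraries. In iTreg cells they held 0.431%, 0.421% and 0.445% with DFMO, against 0.381%, 0.366% and 0.358% with vehicle, again without overlap. The share of all gene-start peaks moved the same way by less, at 41.3% ± 0.794 with DFMO and 39.3% ± 0.495 with vehicle in Th17n, and 49.0% ± 0.953 and 47.6% ± 1.09 in iTreg (SD, n = 3 each). The ratio of ribosomal protein counts to gene-start counts was also higher with DFMO. It was 0.843% ± 0.0133 against 0.718% ± 0.00600 with vehicle in Th17n, and 0.882% ± 0.0144 against 0.773% ± 0.00788 with vehicle in iTreg (SD, n = 3 each). Not all of the ribosomal protein peaks are gene-start peaks, so this is a ratio and not a part of the whole. In these bulk libraries, more cells with an open site and a more open site per cell cannot be told apart.

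**Figure D1:**
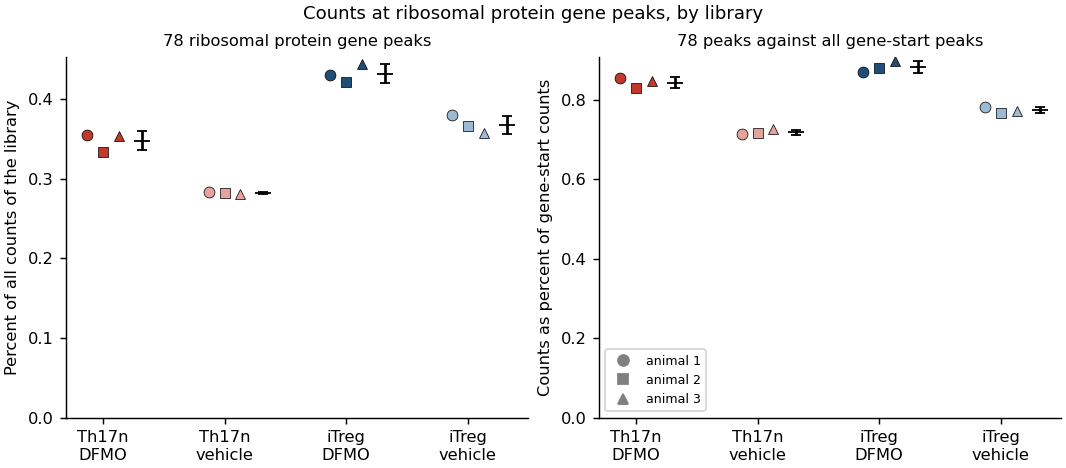
Counts at the 78 ribosomal protein gene peaks as a percent of all counts of a library (left) and of the counts at gene-start peaks (right), for Th17n with DFMO, Th17n with vehicle, iTreg with DFMO and iTreg with vehicle; each symbol is 1 animal and the bar is mean ± SD (n = 3). The right panel is a ratio, since not all 78 peaks are gene-start peaks. DFMO libraries lie above the vehicle libraries of their lineage in both panels, from 0.334 to 0.355 against 0.281 to 0.283 in Th17n at the left.

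In Th17n cells, 17 of the 78 ribosomal protein peaks were more accessible with DFMO and 0 less (edgeR quasi-likelihood test, Benjamini-Hochberg adjusted p under 0.05 over all 43726 peaks). That is 21.8% of them, where 4.5% of all tested peaks and 4.61% of gene-start peaks were called higher, and 4.28% and 1.72% lower. The median log2 change was 0.29 at the ribosomal protein peaks, 0.09 at gene-start peaks and 0.01 over all tested peaks, and 72 of 78 lay above 0. In 32 of 78 peaks (41.0%) all 3 DFMO libraries exceeded all 3 vehicle libraries, against 14.6% of all tested and 17.6% of gene-start peaks, and in 0 were all 3 below, against 14.9% of all tested and 8.32% of gene-start peaks. By role, 7 of 28 small subunit, 8 of 45 large subunit and 2 of 3 stalk peaks were called. The count rests on all 6 Th17n libraries, since 4, 9 or 5 peaks were called without the DFMO library of animal 1, 2 or 3 and 7, 8 or 4 without the vehicle library of animal 1, 2 or 3. Of the 10 named Th17n calls, those of the outer Rps18 peak, Rps14 and Rpl28 held in every alternative run.

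Among small subunit genes in Th17n, Rps14, a gene whose partial loss underlies the anaemia of a human myelodysplastic syndrome, had 51.7, 58.4 and 64.2 CPM with DFMO, against 27.4, 34.0 and 33.5 CPM with vehicle. Every DFMO library was well above every vehicle library, and the log2 change was 0.82 ± 0.16 (SE, edgeR adjusted p = 0.00074). Rps25, a protein that some viral internal ribosome entry sites depend on, had 66.4, 58.4 and 63.6 CPM with DFMO, against 30.2, 44.3 and 42.6 CPM with vehicle, a log2 change of 0.62 ± 0.16 (edgeR adjusted p = 0.011). Its peak also meets the neighbouring gene Trappc4. In iTreg the same Rps25 peak gave a log2 change of 0.10 (edgeR adjusted p = 0.76) with overlapping libraries.

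The lowest p in Th17n fell on an outer Rps18 peak. This peak, chr17:33951106-33951917, lies 81 bp beyond the gene model at the end away from the start and meets the neighbouring gene B3galt4. It had 74.5, 64.8 and 68.1 CPM with DFMO, against 33.0, 35.8 and 36.6 CPM with vehicle, a log2 change of 0.96 ± 0.16 (edgeR adjusted p = 6.0e-05). The start peak of Rps18 itself, chr17:33955295-33956176, had 46.9, 41.8 and 34.4 CPM with DFMO, against 36.8, 38.8 and 34.6 CPM with vehicle. Those libraries overlapped, and the log2 change there was 0.17 ± 0.18 (edgeR adjusted p = 0.62). In iTreg the outer peak gave 0.43 ± 0.15 and was not called (edgeR adjusted p = 0.059), although its DFMO libraries all lay above its vehicle libraries. The start peak gave 0.15 ± 0.17 in iTreg (edgeR adjusted p = 0.66). Averaged over the lineages, the outer peak rose by 0.70 ± 0.11 (edgeR adjusted p = 9.6e-06).

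Large subunit genes called in Th17n included Rpl28, with 56.6, 62.2 and 59.7 CPM with DFMO, against 28.3, 37.6 and 39.8 CPM with vehicle, a log2 change of 0.70 ± 0.17 (edgeR adjusted p = 0.0052). Its groups did not overlap, and its start carries one of the pyrimidine runs printed above. Rpl41, one of the smallest proteins made by animal cells, had 54.3, 42.6 and 63.6 CPM with DFMO, against 47.2, 33.1 and 27.5 CPM with vehicle (log2 change 0.65 ± 0.18, edgeR adjusted p = 0.015). Rpl37a had 22.1, 46.0 and 42.2 CPM with DFMO, against 11.3, 22.5 and 22.0 CPM with vehicle (log2 change 0.83 ± 0.24, edgeR adjusted p = 0.021). Both were called although 1 library of each group crossed into the range of the other. Rpl9 rose by 0.71 ± 0.21 on the log2 scale (edgeR adjusted p = 0.024), at a start peak that also meets Lias. Of the stalk genes, which hold the flexible arm that elongation factors dock on, Rplp1 had 38.4, 48.6 and 49.3 CPM with DFMO, against 35.9, 29.5 and 28.0 CPM with vehicle, and Rplp2 had 59.2, 53.3 and 51.9 CPM with DFMO, against 30.2, 43.6 and 35.2 CPM with vehicle. Neither overlapped, and the edgeR adjusted p was 0.049 for Rplp1 and 0.039 for Rplp2.

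**Figure D2:**
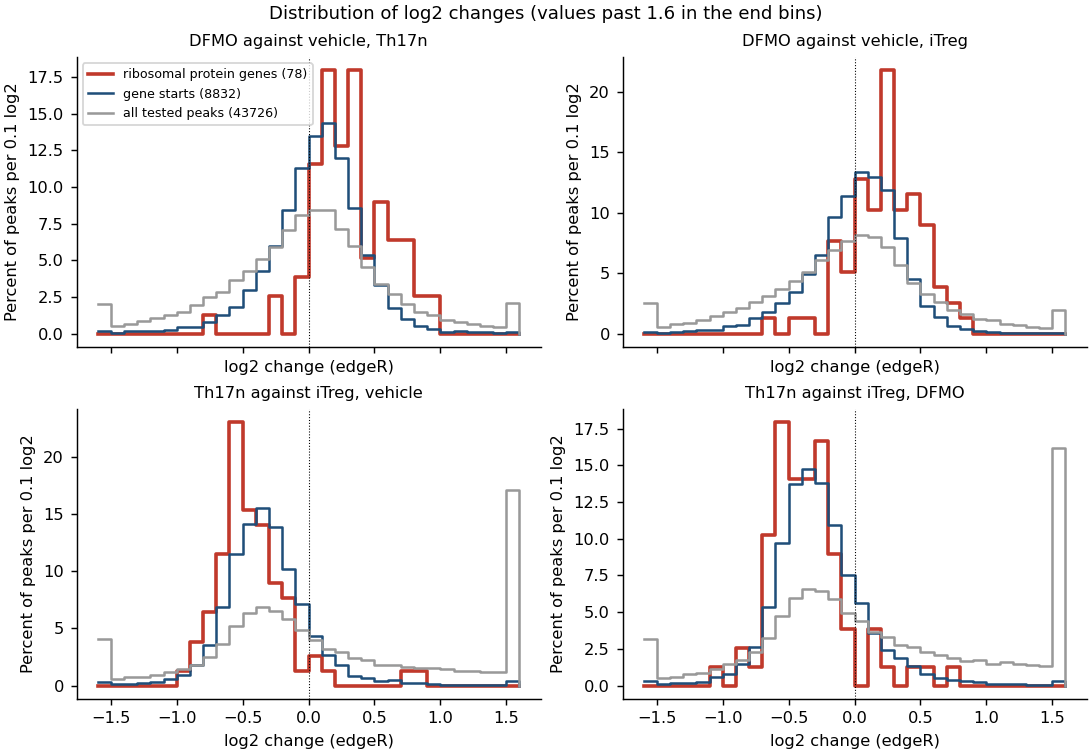
Distribution of edgeR log2 changes in 4 comparisons, as the percent of peaks per step of 0.1, for the 78 ribosomal protein peaks, 8832 tested gene-start peaks and all 43726 tested peaks. The ribosomal protein curve lies to the right of both others under DFMO (medians 0.29 in Th17n and 0.27 in iTreg) and to the left in Th17n against iTreg (medians -0.47 with vehicle and -0.37 with DFMO).

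In iTreg cells, 10 of the 78 peaks (12.8%) were called higher with DFMO and 0 lower by the same test, where 3.84% of all tested peaks and 3.99% of gene-start peaks were called higher, and 4.72% and 3.26% lower. The median log2 change was 0.27, against 0.05 at gene-start peaks and -0.01 over all tested peaks, and 65 of 78 lay above 0. All 3 DFMO libraries exceeded all 3 vehicle libraries at 28 of 78 peaks (35.9%), against 11.4% of all tested and 16.5% of gene-start peaks, and lay below at 0, against 12.2% of all tested and 11.3% of gene-start peaks. By role, 7 of 28 small subunit, 3 of 45 large subunit and 0 of 3 stalk peaks were called. Without the iTreg DFMO library of animal 3, 4 peaks were called, and without the vehicle library of animal 2 or 3, 5 or 4. Without the DFMO library of animal 2, 2 were called lower. Of the iTreg calls, those of Rps19 and Rpl37 held in every alternative run.

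The small subunit gene Rps12 had 56.6, 64.3 and 62.2 CPM in iTreg with DFMO, against 33.2, 38.9 and 36.2 CPM with vehicle. No library crossed between the groups, and the log2 change was 0.75 ± 0.18 (edgeR adjusted p = 0.0052). Rps6, the small subunit protein that S6 kinases phosphorylate downstream of mTOR, had 83.7, 45.0 and 81.0 CPM in iTreg with DFMO, against 41.4, 34.2 and 44.5 CPM with vehicle. The log2 change was 0.81 ± 0.20 (edgeR adjusted p = 0.0083), but the animal 2 DFMO library was only just above the highest vehicle library. The call was lost in 2 runs with 1 library left out (highest edgeR adjusted p = 0.10, without the animal 3 DFMO library). In Th17n, Rps6 had 45.2, 28.5 and 55.8 CPM with DFMO and 63.2, 33.4 and 40.9 CPM with vehicle, a log2 change of 0.003 ± 0.22. The difference between the lineages in this response (-0.81 ± 0.30) did not pass the test (edgeR adjusted p = 0.17).

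Rpl37, a large subunit gene, had little spread within its groups in iTreg, with 117, 108 and 112 CPM with DFMO, against 73.0, 78.9 and 81.7 CPM with vehicle (log2 change 0.52 ± 0.13, edgeR adjusted p = 0.0059). Its peak also meets Card6. Rpl32, another large subunit gene, had 52.4, 40.5 and 45.9 CPM with DFMO, against 29.5, 33.5 and 25.1 CPM with vehicle (log2 change 0.65 ± 0.20, edgeR adjusted p = 0.031). Of the other small subunit genes called in iTreg, Rps27 rose by 0.61 ± 0.18, Rps23 by 0.58 ± 0.18 and Rps26, a Diamond-Blackfan anaemia gene in humans, by 0.50 ± 0.16 on the log2 scale, with edgeR adjusted p of 0.024, 0.033 and 0.038. In each of these, as in Rpl32, all 3 DFMO libraries exceeded all 3 vehicle libraries.

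Called in both lineages were 3 peaks, Rps19, Rpl10 and Rps27a. Rps19, needed to mature the small subunit and the first gene linked to Diamond-Blackfan anaemia, had 123, 100.1 and 96.7 CPM in Th17n with DFMO, against 75.5, 73.9 and 71.3 CPM with vehicle, and 145, 158 and 159.5 CPM in iTreg with DFMO, against 103, 92.2 and 116 CPM with vehicle. The groups did not overlap in either lineage, and the log2 changes were 0.55 ± 0.13 in Th17n and 0.57 ± 0.12 in iTreg (edgeR adjusted p = 0.0045 and 0.0017). The Th17n call of Rps19 was lost in 2 runs with 1 library left out (highest edgeR adjusted p = 0.14, without the animal 1 Th17n DFMO library) and in 1 other alternative run.

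Rpl10, an X-linked gene whose protein is among the last to join the large subunit, had 89.5, 63.9 and 56.4 CPM in Th17n with DFMO, against 36.8, 46.5 and 48.6 CPM with vehicle. In iTreg it had 83.7, 110.2 and 101 CPM with DFMO, against 75.6, 58.0 and 61.1 CPM with vehicle. Animal 1 stood highest among the Th17n DFMO libraries and lowest among the iTreg DFMO libraries. The log2 changes were 0.65 ± 0.16 and 0.63 ± 0.15 (edgeR adjusted p = 0.0078 and 0.0066). The Th17n call of Rpl10 was lost in 3 runs with 1 library left out (highest edgeR adjusted p = 0.28, without the animal 1 Th17n DFMO library) and in 1 other alternative run. The iTreg call was lost in 3 runs with 1 library left out (highest edgeR adjusted p = 0.064, without the animal 2 iTreg vehicle library).

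Rps27a, which is made as a fusion with ubiquitin, had 81.0, 71.2 and 73.3 CPM in Th17n with DFMO, against 45.3, 60.6 and 46.4 CPM with vehicle, and 83.1, 103 and 104 CPM in iTreg with DFMO, against 62.2, 81.5 and 65.5 CPM with vehicle. The groups did not overlap in either lineage (log2 changes 0.53 ± 0.15 and 0.47 ± 0.14, edgeR adjusted p = 0.021 and 0.031). In Th17n the call was lost in 5 runs with 1 library left out (highest edgeR adjusted p = 0.21, without the animal 3 vehicle library). In iTreg it was lost in 4 such runs (highest edgeR adjusted p = 0.18, without the animal 3 DFMO library). In each lineage it was also lost in 2 other alternative runs. Its peak also meets the gene Clhc1.

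**Figure D3:**
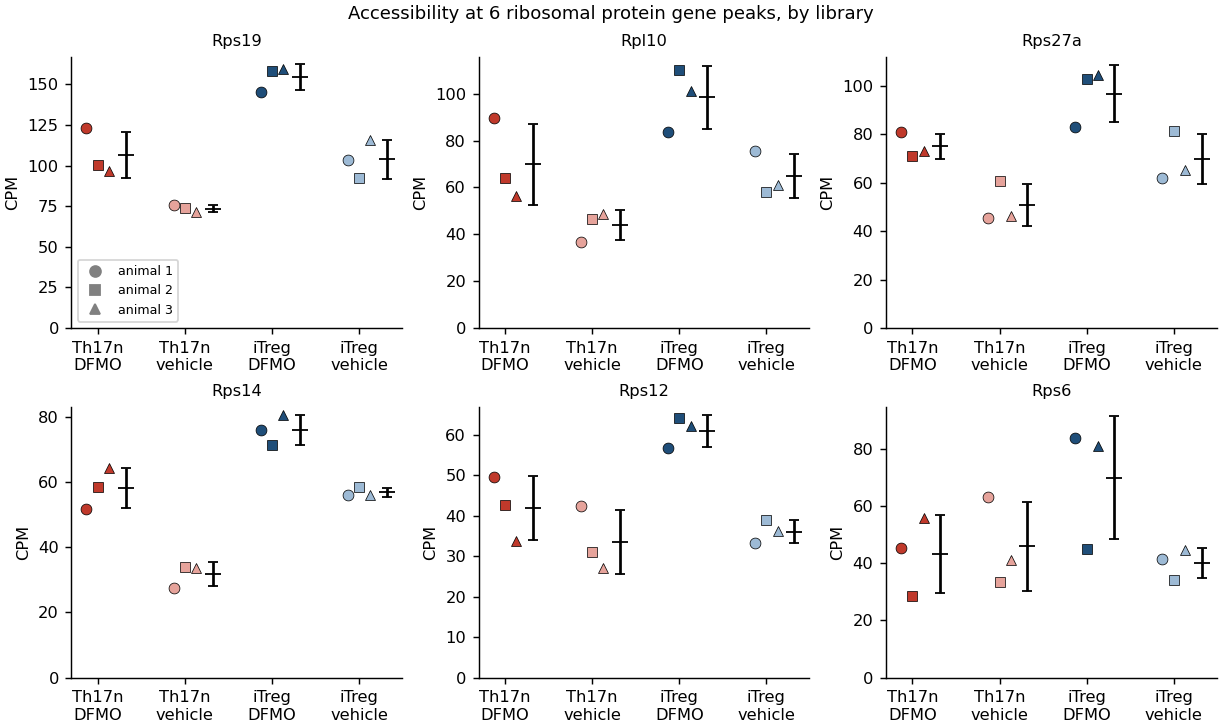
CPM of 6 ribosomal protein gene peaks in each library, for Th17n with DFMO, Th17n with vehicle, iTreg with DFMO and iTreg with vehicle; each symbol is 1 animal and the bar is mean ± SD (n = 3). Rps19, Rpl10 and Rps27a are higher with DFMO in both lineages, Rps14 passes the test in Th17n, and Rps12 and Rps6 pass it in iTreg, with the Rps6 libraries of animal 2 low in all 4 groups.

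Averaged over the lineages, 26 of 78 peaks (33.3%) were called higher with DFMO and 0 lower, where 8.02% of all tested peaks and 10.6% of gene-start peaks were called higher, and 8.18% and 5.45% lower. They comprised 13 of 28 small subunit, 10 of 45 large subunit and 3 of 3 stalk peaks, and 0 of the 2 paralog peaks. The median log2 change was 0.36 at small subunit peaks, 0.23 at large subunit peaks and 0.41 at stalk peaks, and all 28 small subunit peaks lay above 0. Rps16, a small subunit gene, rose by 0.66 ± 0.15 on the log2 scale on average (edgeR adjusted p = 0.0021). In all, 24 peaks were called in at least 1 lineage and another 4 (Rps28, Rpl30, Rpsa and Rplp0) only on average. Both lineages gave a value above 0 at 61 of the 78 peaks and below 0 at 2. None of the 78 was called in the interaction, which compares the DFMO effect in Th17n with that in iTreg, where 0.835% of all tested peaks and 0.351% of gene-start peaks were higher, and 0.478% and 0.102% lower. So no gene can be said to respond in 1 lineage more than in the other, whatever its calls within each. At an unadjusted p under 0.05, 7 of the 78 peaks differed in the interaction, against 812 of 8832 gene-start peaks and 6094 of 43726 tested peaks, and DESeq2 called 0 of the 78. Without the iTreg DFMO library of animal 2, 1 peak was called lower.

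**Figure D4:**
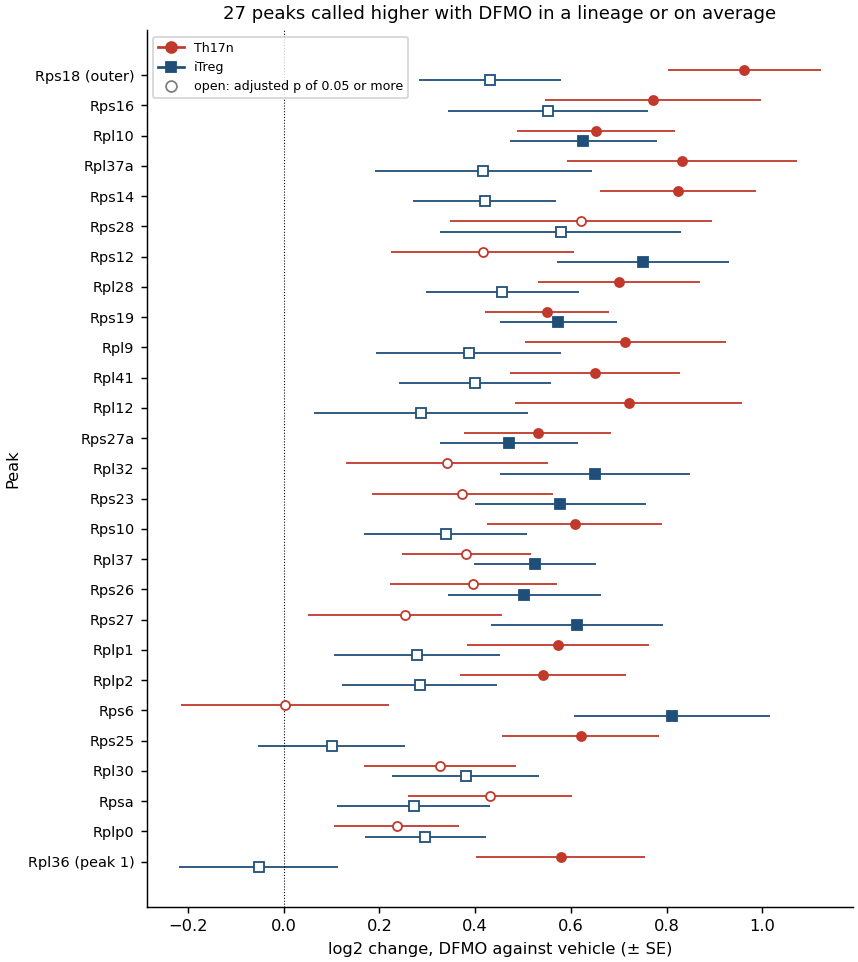
Log2 change with DFMO against vehicle (± SE) in Th17n (circles) and iTreg (squares) for 27 of the 28 peaks called higher in a lineage or on average, ordered by their average change; filled symbols passed the test in that lineage. Most values of both lineages lie above 0, with Rps6 near 0 in Th17n and the first Rpl36 peak near 0 in iTreg.

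Several well-studied members did not pass in either lineage. Rpl5 and Rpl11, which together with the smallest ribosomal RNA can bind Mdm2 and so stabilise p53, had log2 changes of 0.12 and 0.14 in Th17n and 0.47 and -0.06 in iTreg (edgeR adjusted p of 0.81 and 0.71 in Th17n, and of 0.16 and 0.88 in iTreg). Rpl22, needed for the development of alpha beta T cells in mice, had 45.9 ± 3.81 CPM with DFMO and 45.5 ± 10.8 CPM with vehicle in Th17n (SD, n = 3 each), a log2 change of 0.08, and 0.10 in iTreg. Rpl38, which in mouse embryos helps to translate certain Hox mRNAs, gave 0.31 in Th17n and 0.21 in iTreg (edgeR adjusted p = 0.24 and 0.44). Rpsa, also known as the laminin receptor precursor, gave 0.43 and 0.27 (edgeR adjusted p = 0.10 and 0.31). Rplp0 had 98.7 ± 4.05 CPM with DFMO and 84.6 ± 10.7 CPM with vehicle in Th17n, and 119.7 ± 14.6 and 98.1 ± 4.82 CPM in iTreg (SD, n = 3 each), and its libraries did not overlap in either lineage although neither log2 change, 0.24 and 0.30, passed the test.

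The muscle paralog Rpl3l has a peak 87 bp from its gene model that also meets Msrb1. Its log2 change was 0.34 in Th17n and -0.12 in iTreg (edgeR adjusted p = 0.29 and 0.76). Rpl3, whose protein reaches towards the peptidyl transferase centre, has an internal peak with few counts, at 13.0, 13.6 and 17.5 CPM in Th17n with DFMO, against 4.72, 7.62 and 8.01 CPM with vehicle. These libraries did not overlap, but the change of 1.00 ± 0.34 just missed the threshold (edgeR adjusted p = 0.053), and in iTreg it was -0.13. A small nucleolar RNA gene lies at this peak.

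For the 5 genes with 2 peaks, the pair did not always move together. Besides Rps18, the first Rpl36 peak, shared with Micos13, had 57.3, 44.7 and 56.4 CPM in Th17n with DFMO, against 38.7, 36.2 and 32.3 CPM with vehicle (log2 change 0.58 ± 0.18, edgeR adjusted p = 0.030), while in iTreg it gave -0.05. The Th17n call of this first peak was lost in 6 runs with 1 library left out and in 5 other alternative runs. The second Rpl36 peak, shared with Lonp1, gave 0.37 in Th17n and 0.13 in iTreg and was called in neither. In Th17n its DFMO libraries also all lay above its vehicle libraries. At Rpl19 the start peak gave 0.56 in Th17n and 0.02 in iTreg. The upstream peak by Cacnb1, inside the gene model but before the start window, gave -0.09 and -0.69. None of these changes was called. Without the iTreg DFMO library of animal 2, the upstream peak was called lower in iTreg (log2 change -1.19, edgeR adjusted p = 0.036). The Rpl35 start peak gave 0.33 and 0.24 and its small inner peak -0.76 and -0.33, and both Rpl18 peaks lay between -0.12 and 0.17, again with no call. The difference between the peaks of a pair was not tested.

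The 200 bp margin set which sites counted. Just inside it were the outer Rps18 peak (81 bp) and the Rpl3l peak (87 bp). Just outside lay a peak 229 bp from Rpl4, with 72.4 ± 0.873 CPM with DFMO and 42.1 ± 7.83 CPM with vehicle in Th17n (SD, n = 3 each), and peaks 266 bp from Rps19, 277 bp from Rpl36 and 279 bp from Rpl23. A further one, 556 bp from Rpl3 at chr15:80075748-80077225, had 119, 87.8 and 86.9 CPM in Th17n with DFMO, against 34.0, 32.7 and 28.9 CPM with vehicle, and 88.5, 118 and 67.1 CPM in iTreg with DFMO, against 43.5, 37.3 and 36.2 CPM with vehicle. Its groups did not overlap in either lineage.

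Between the lineages, ribosomal protein peaks were less open in Th17n than in iTreg on the scale used here. With vehicle, all 3 Th17n libraries lay below all 3 iTreg libraries at 55 of 78 peaks (70.5%), against 25.5% of all tested and 48.1% of gene-start peaks, and above at 1, against 27.8% and 2.33%. With DFMO they lay below at 36 (46.2%), against 19.7% of all tested and 38.2% of gene-start peaks, and above at 0, against 25.8% and 2.85%. By the test with vehicle, 47 of 78 (60.3%) were called lower in Th17n and 0 higher, where 19.3% of all tested peaks and 36.6% of gene-start peaks were lower and 25.2% and 1.29% higher. The median log2 difference was -0.47 at ribosomal protein peaks and -0.34 at gene-start peaks, against -0.07 over all tested peaks. With DFMO, 30 of 78 (38.5%) were lower in Th17n and 0 higher, where 14.7% of all tested peaks and 29.2% of gene-start peaks were lower and 22.5% and 1.48% higher, and the median was -0.37 at ribosomal protein peaks and -0.30 at gene-start peaks. Rpl41 had 35.9 ± 10.2 CPM in Th17n and 65.0 ± 8.48 CPM in iTreg with vehicle (SD, n = 3 each), a log2 difference of -0.94 ± 0.17 (edgeR adjusted p = 1.5e-05). Rps14, Rps25, the outer Rps18 peak and Rps2 were also called, with differences of -0.80, -0.74, -0.73 and -0.77. Without the Th17n vehicle library of animal 1, 2 or 3, 28, 26 or 22 of 78 peaks were called lower, and without the iTreg vehicle library of animal 2, 30.

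With DFMO the largest of the named lineage differences was at Rps27, with 36.1, 31.5 and 25.9 CPM in Th17n against 72.9, 68.2 and 57.9 CPM in iTreg. No library overlapped, and the log2 difference was -1.05 ± 0.19 (edgeR adjusted p = 2.2e-05). Rps19 (-0.53), Rps26 (-0.70), Rpl41 (-0.69), Rpl27 (-0.57) and Rps2 (-0.67) followed by p. Without the Th17n DFMO library of animal 2 or the iTreg DFMO library of animal 3, 18 of 78 peaks were called lower.

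These lineage counts depend on the scale. When the libraries were scaled on gene-start peaks alone, the median of all tested peaks moved to 0.27 with vehicle and 0.30 with DFMO, and 6 of 78 ribosomal protein peaks with vehicle and 1 of 78 with DFMO were called lower in Th17n, with 1 called higher in each. The ribosomal protein median was then -0.13 with vehicle and -0.06 with DFMO, against -9.8e-05 and 0.007 at gene-start peaks. The DFMO medians moved less under that scale, to 0.21 in Th17n and 0.22 in iTreg, with 11 and 7 peaks called higher.

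**Figure D5:**
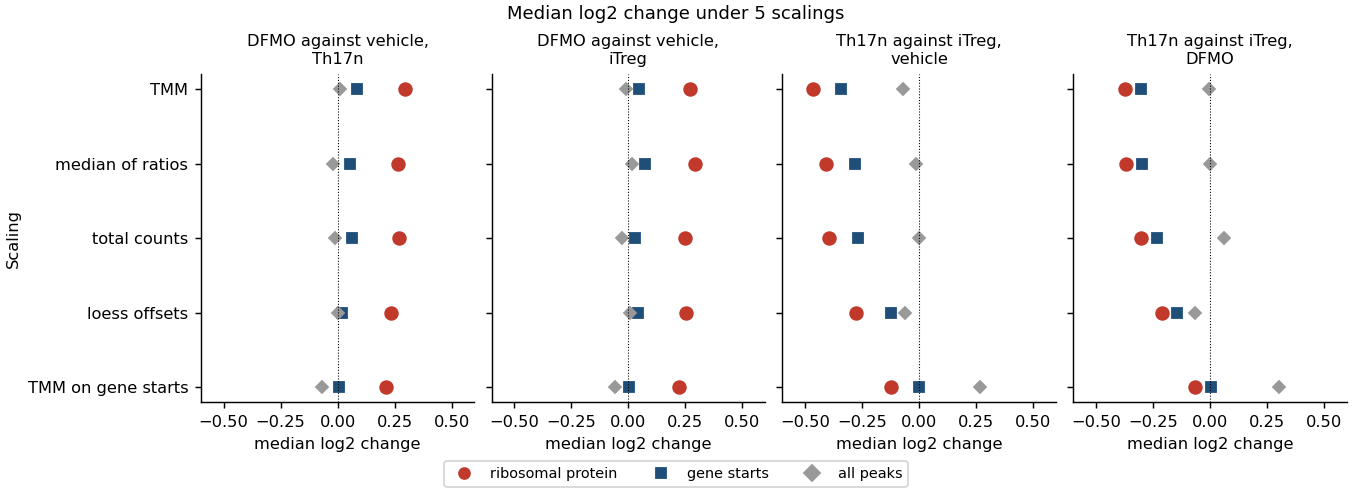
Median log2 change of the 78 ribosomal protein peaks, the gene-start peaks and all tested peaks under 5 ways of scaling the libraries, in 4 comparisons. Under DFMO the ribosomal protein median stays between 0.21 and 0.29 under all 5, while in Th17n against iTreg with vehicle it lies between -0.47 and -0.13.

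Within the set, features other than subunit were also counted on the average DFMO change. The 27 genes that host small nucleolar RNAs had 10 peaks called of 27, and the other members 16 of 51, with medians of 0.29 and 0.26. Of 20 peaks that also meet another protein-coding gene, 9 were called, and of the other 58, 17. Of the 4 X-linked peaks 1 was called, Rpl10. Of the 54 peaks at a start window, 19 were called (35.2%), and of the 17 at an end without strand, 6 (35.3%). A pyrimidine run was present in 36.8% of the 19 windows of called genes and 40.0% of the 35 windows of genes not called, and CCGGAAG in 36.8% and 40.0%. GGGCGG stood in 57.9% and 57.1% of them, TATAAA in 10.5% and 8.57%, AAGATGGC in 5.26% and 5.71%, CTTTCC in 21.1% and 28.6% and CTCTTTCC in 5.26% and 17.1%. The first base was C or T in 31.6% and 51.4%. CACGTG stood in 0 of the 19 and 4 of the 35, and TGACGTCA in 0 and 5. These shares were not tested.

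The neighbouring steps of ribosome production were read from the same fit in lists chosen with earlier results known. Of 54 tested peaks at ribosome biogenesis genes, which process ribosomal RNA and assemble subunits, 14 were called higher (25.9%) and 0 lower on average, where 8.02% of all tested and 10.6% of gene-start peaks were higher and 8.18% and 5.45% lower. The median log2 change was 0.18. Npm1, the nucleolar chaperone nucleophosmin, had 73.0 ± 7.80 CPM with DFMO and 45.9 ± 12.1 CPM with vehicle in Th17n, and 109 ± 7.64 and 69.8 ± 8.60 CPM in iTreg (SD, n = 3 each), and rose by 0.62 ± 0.11 on average (edgeR adjusted p = 4.3e-05). Nop56 and one of the Ncl peaks, both at genes of nucleolar proteins of ribosomal RNA processing, rose by 0.44 and 0.30 (edgeR adjusted p = 0.0011 and 0.0055). Within lineages, 2 of the 54 were higher (3.70%) and 1 lower (1.85%) in Th17n, the last being 1 of 3 Wdr43 peaks, where 4.5% and 4.28% of all tested peaks were higher and lower. In iTreg 3 were higher (5.56%) and 0 lower, where 3.84% and 4.72% were. Those shares within lineages are near the background.

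Of 56 tested peaks at translation factor genes, 8 were higher (14.3%) and 1 lower (1.79%) on average, where 8.02% of all tested and 10.6% of gene-start peaks were higher and 8.18% and 5.45% lower (list median 0.18). Eif3e, an initiation factor subunit, rose by 0.65 ± 0.14 at its only peak (edgeR adjusted p = 0.0012). At Eif4a2, an RNA helicase of initiation, 1 of 2 tested peaks rose, by 1.04 ± 0.24 (edgeR adjusted p = 0.0020). Of 6 Eif3h peaks, 1 was higher and 1 lower, the last by -1.18 (edgeR adjusted p = 0.00037).

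Of 57 tested peaks at genes that act upstream, such as Myc partners and mTOR components, 3 were higher (5.26%) and 6 lower (10.5%) on average, near the 8.02% and 8.18% of all tested peaks (list median 0.04). At Mxi1, a Myc antagonist, 3 of 7 tested peaks were lower and 0 higher, and the one with the smallest p changed by -1.65 (edgeR adjusted p = 6.1e-06). At Max, which pairs with Myc and with Mxi1, 1 of 2 tested peaks was lower, by -0.94 (edgeR adjusted p = 0.0025). Of 11 tested peaks at Rptor, the mTOR complex subunit Raptor, 1 was higher, by 0.66 ± 0.15 (edgeR adjusted p = 0.0011), and 1 lower. At Odc1, which encodes the enzyme that DFMO blocks, the first of 2 peaks gave 0.03 in Th17n and 0.19 in iTreg, the second gave -0.25 and -0.67, and neither was called.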

How the data were processed

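Counts of ATAC-seq reads per peak were deposited by the authors for 12 libraries in 1 table (mm10). Per the submitters' processing notes, Trimmomatic, FastQC, Bowtie2 and MACS2 were used; versions and settings, and how reads that fit several places were handled, are not recorded in the labels. Per the labels' protocols, reads were paired and 37 bases long. Whether peak coordinates count from 0 or 1 is not stated, and they are printed as deposited. The table had 0 columns of other samples.

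Peaks with low counts were removed (edgeR filterByExpr, minimum count 10), leaving 43726 of 48443. Counts were scaled by TMM and tested with edgeR 4.0.16 (R 4.3.3, limma 3.58.1) by the quasi-likelihood test with 4 group means over all 12 libraries. P-values were adjusted by Benjamini-Hochberg over all tested peaks, with a threshold of 0.05. Standard errors come from the same fit. CPM values are counts scaled to 1e6 per library total over the kept peaks, with that total multiplied by the TMM factor of the library. These factors ran from 0.958 (iTreg with DFMO, animal 3) to 1.05 (Th17n with vehicle, animal 1). The procedure was tested on simulated data. DESeq2 1.42.0, 4 other scalings, no filter, thinning to the smallest total, fits on the groups of a contrast only, an animal block, leaving out each library and other definitions of membership were alternatives.

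The animal identifiers in the labels (WT1, WT2 and WT3) pair the libraries, since each animal gave 1 library to every group. Deviations from the group means correlated by -0.055 to 0.075 in 18 same-animal pairs. Among the libraries of other groups, 7 of 12 libraries correlated best with one of their own animal. Each other group held 1 library of the same animal among its 3, so such matches also arise without any likeness by animal. No 2 libraries of the same group agreed within counting noise (lowest chi-square per degree of freedom 2.08). Depth limits the precision of single peaks, with totals of 1020937 to 6496550 counts.

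Members and gene lists were chosen with earlier results of these data known. Named genes are up to 10 peaks per DFMO comparison and up to 6 per lineage comparison with the smallest p among those called, 13 genes chosen for their roles, genes with 2 peaks, up to 3 genes per other list and comparison, and Odc1. Rplp1, Rplp2, Rps10, Rps28 and Rpl30 and the peaks just outside the margin were named after their values were seen. Promoter windows and strands come from RefSeq tables of GRCm38.p6, which gave a window for 55 member genes, 54 of them met by a ribosomal protein peak, and none for 18. A few genes are not reported here by name.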

Additional observations from a re-analysis of the deposited data

How the results depend on the processing

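Counts of ribosomal protein peaks called higher with DFMO on average stayed between 18 and 30 in every alternative run, while other counts moved. In Th17n, 17 peaks higher with DFMO became 11 with scaling on gene-start peaks, 11 with loess offsets, 11 of the 54 at a start window and 8 with libraries thinned to the smallest total, and 4 to 19 with 1 library left out. In iTreg, 10 became 5 after thinning and 4 to 12 with 1 library left out, and those lower, 0, became 0 to 2. In Th17n against iTreg with vehicle, 47 lower became 29 with DESeq2, 6 with scaling on gene-start peaks, 10 with loess offsets, 30 with median-of-ratios factors, 30 with total counts, 15 after thinning and 22 to 51 with 1 library left out. Those higher, 0, became 1 with scaling on gene-start peaks, 1 with median-of-ratios factors, 1 with total counts, 1 with only the groups of the contrast and 0 to 1 with 1 library left out. With DFMO, 30 lower became 1 with scaling on gene-start peaks, 10 with loess offsets, 19 with total counts, 12 after thinning and 18 to 34 with 1 library left out, and those higher, 0, became 1 with scaling on gene-start peaks and 0 to 1 with 1 library left out. The interaction had 0 to 1 lower with 1 library left out. With the replicate block by animal, counts were 15, 10, 26, 45 and 31 for Th17n, iTreg, the average and the 2 lineage comparisons. The causes of these shifts were not tested. Runs with thinning or a left-out library hold fewer counts or samples.

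Some log2 changes that were not called changed sign, most of them near 0. For Rps6 in Th17n (0.003) they were -0.0713 with DESeq2, -0.083 with scaling on gene-start peaks, -0.064 with loess offsets, -0.030 with median-of-ratios factors, -0.024 with total counts, -0.0390 without the filter, -0.067 with the replicate block and -0.25 to 0.18 with 1 library left out. The Rpl18 peak at 45714836 in Th17n gave -0.046 with scaling on gene-start peaks, -0.048 with loess offsets and -0.00742 without the filter, and -0.045 to 0.035 with 1 library left out. The Rpl18 peak at 45717715 gave -0.0425 and -0.00584 in Th17n with scaling on gene-start peaks and without the filter, and -0.048 to 0.052 with 1 library left out, or -0.055 to 0.29 in iTreg. The upstream Rpl19 peak gave 0.014 in Th17n with the replicate block and 0.0099 in iTreg after thinning (against -0.69), and the Rpl19 start peak gave -0.022 in iTreg with scaling on gene-start peaks and -0.10 to 0.11 with 1 library left out. The first Rpl36 peak gave 0.035 in iTreg after thinning and -0.18 to 0.053 with 1 library left out. With 1 library left out, the ranges in Th17n were -0.086 to 0.15 for Rpl22 and -0.14 to 0.23 for Rpl5. In iTreg they were -0.19 to 0.019 for Rpl11, -0.011 to 0.21 for Rpl22, -0.42 to 0.079 for Rpl3, -0.0064 to 0.20 for the second Rpl36 peak and -0.26 to 0.040 for Rpl3l.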
